A study of Mus musculus with 10 samples.

Results

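Plagl1 and its paralogs Plag1 and Plagl2 were followed in mouse embryonic stem (ES) cells and in the cardiac cultures grown from them, with and without the Polycomb-associated protein Rybp. The 3 genes were found by symbol among 36191 genes in a count table, and all 3 were among the 15819 genes with enough reads to test. Plagl1 was chosen because its level differed between the genotypes in these libraries, so its genotype differences are given as a description with no test. Plag1 and Plagl2 were taken for their relation to it, whatever their levels.

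There were 10 libraries of total RNA, all from cells of the strain background 129x1 x 129S1. ES cells of the wild type and of the Rybp null mutant were each sampled in 1 library at day 0, before differentiation. Cultures of each genotype, differentiated through hanging-drop embryoid bodies, were sampled in 2 libraries at day 8 and in 2 at day 14. The labels name the genotypes and no other allele or agent, and neither the making of the null line nor its number of clones is given in the sources used here. They also do not say whether the 2 replicates of a group were separate cultures, so each p-value measures only the spread between these libraries, which may be technical.

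PLAGL1, also called ZAC1, is a zinc finger transcription factor. Its gene is imprinted: in many tissues the copy inherited from the father is the one transcribed, under the control of a CpG-rich promoter that carries DNA methylation on the maternal copy. The protein is known for halting the cell cycle and promoting apoptosis, for regulating other imprinted genes that govern fetal growth, and for its expression in the embryonic heart. PLAG1 and PLAGL2 share its zinc finger architecture and are best known as oncogenes that promote growth, among other routes through Igf2. RYBP is a subunit of noncanonical Polycomb repressive complexes, which place ubiquitin on histone H2A.

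The start of Plagl1 is shown first because the control of this imprinted gene acts there. The sequence below covers 250 to 51 bases before the RefSeq start of Plagl1, at chr10:13090582-13090781 on the plus strand of GRCm38.p6, and capitals mark each CpG.
Plagl1 promoter: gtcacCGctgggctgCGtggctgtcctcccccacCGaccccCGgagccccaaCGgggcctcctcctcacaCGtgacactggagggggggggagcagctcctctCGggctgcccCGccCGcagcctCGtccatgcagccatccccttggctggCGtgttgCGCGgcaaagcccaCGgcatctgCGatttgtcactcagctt
These 200 bases hold 15 CpG sites, against a median of 4 over the 32851 RefSeq promoter windows of the same length and position, and 17.8% of those windows hold at least as many. Their G and C content is 70.0%, a level that 8.64% of the windows reach. TGCCGC, the letters bound by the imprint-protecting factor ZFP57 when methylated, matched once, on the reverse strand as GCGGCA from base 161 of the window, and 6.69% of windows hold a match on either strand. The E-box CACGTG matched once, from base 69, and is found in 4.34% of windows, whereas the E2F-type GCGGGAA had 0 matches and is found in 2.95%. The libraries carry no measure of methylation or factor binding, so these matches describe the letters only.

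Plagl1 (ENSMUSG00000019817) lies on chromosome 10, Plag1 (ENSMUSG00000003282) on chromosome 4 and Plagl2 (ENSMUSG00000051413) on chromosome 2. The deposited counts refer to another genome build, so no gene coordinates are given. No other gene in the count table overlapped any of the 3 in the annotation used for names (0 for each). Library totals ran from 3028153 to 6890792 counts, and levels are given as CPM, the counts scaled to the normalised size of each library. Rybp itself checked the labels: it stood at 76.2 CPM in wild type ES cells, 40.7 ± 3.39 (SD, n = 2) at day 8 and 21.5 ± 2.84 (SD, n = 2) at day 14, while the 5 null libraries held 1 to 4 Rybp counts each.

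Plagl1 became one of the most abundant transcripts of the wild type cultures. In the null cultures it stood far lower than that, though above its level in null ES cells. In the wild type it was measured at 66.3 CPM in ES cells, at 12540 and 11150 CPM in the 2 day 8 libraries, and at 20110 and 22690 CPM in the 2 day 14 libraries. In the null cells it was measured at 4.91 CPM in ES cells, at 161 and 148.5 CPM at day 8, and at 155 and 299 CPM at day 14. Every wild type library of differentiated cultures stood above every null one, and the null cultures stood above wild type ES cells. In bulk RNA, fewer cells that transcribe a gene and less RNA in each cell cannot be told apart.

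By share of counts Plagl1 was among the leading genes of the wild type cultures. It ranked 3 among all genes by counts in both wild type day 8 libraries and 1 in both day 14 libraries, with 1.30% and 1.13% of all counts at day 8 and 2.10% and 2.33% at day 14. In the null cultures it ranked 1175 and 1318 at day 8 and 1202 and 543 at day 14. In ES cells its rank was 3088 in the wild type and 10335 in the null library. These ranks are by counts and so also reflect the length of each transcript.

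**Figure D1:**
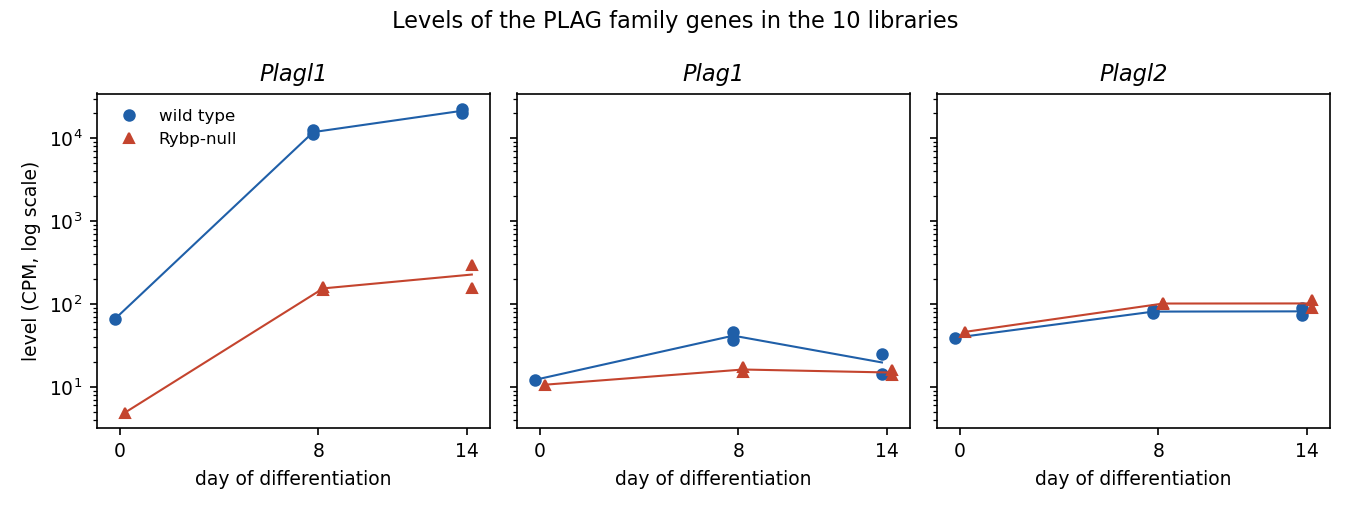
Level of each gene in CPM (log scale) against the day of differentiation, with a point for each of the 10 libraries (circles wild type, triangles Rybp-null, drawn slightly apart) and lines through the group means. Plagl1 at days 8 and 14 sits between 11150 and 22690 CPM in the wild type and between 148.5 and 299 CPM in the null libraries, while Plag1 and Plagl2 stay between 10.7 and 113 CPM throughout.

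The null mean was 1.30% of the wild type mean at day 8 and 1.06% at day 14, or 76.7-fold and 94.3-fold lower. On the log2 scale the fitted differences were -6.26 at day 8 and -6.56 at day 14. Across all genes, 1.26% passed the test at day 8 and 0.613% at day 14, and libraries that were lower in the null without overlap were seen for 20.9% and 22.8% of genes; since Plagl1 was chosen on this contrast, nothing is read from its place among them. At day 0, with 1 library per genotype and no test, 201 counts in the wild type and 29 in the null library gave a 13.5-fold ratio, with a 95% exact interval of 9.13 to 20.7 that covers counting error only. The null ES cells thus had 7.40% of the wild type level.

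The course of Plagl1 within each genotype was a different contrast from the one used to choose it, and it was tested. The day 8 and day 14 libraries enter both, so these p-values are not independent of the choice. From day 0 to day 8 it rose 179-fold in the wild type (log2 change 7.48, SE 0.44, adjusted p = 3.29e-07, edgeR) and 31.5-fold in the null cells (log2 change 4.97, SE 0.42, adjusted p = 4.2e-06, edgeR). The day 8 libraries of each genotype stood above their own ES cell library. Passing the same test were 40.5% of all genes in the wild type and 37.7% in the null cells. The 2 genotypes thus both gained Plagl1 transcript, from starting levels that already differed.

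Between days 8 and 14 the changes were smaller. The wild type mean rose from 11850 ± 986 to 21400 ± 1822 CPM (SD, n = 2 each), a 1.81-fold difference without overlap that missed the threshold (log2 difference 0.85, 95% interval 0.34 to 1.37, adjusted p = 0.0707, edgeR). In the null cultures the means were 154.5 ± 8.52 and 227 ± 102 CPM (SD, n = 2 each), and the groups overlapped (log2 difference 0.56, 95% interval 0.03 to 1.08, adjusted p = 0.203, edgeR). The null difference rested on the second day 14 library: without it the log2 difference was 0.01, and without the first it was 0.95 and passed (adjusted p = 0.00703, edgeR). The wild type difference passed when either null day 14 library was left out of the fit (adjusted p = 0.00428 and 0.00443, edgeR). Over all genes 4.04% passed between these days in the wild type, where 26.3% were higher and 25.1% lower at day 14 without overlap, and 7.69% passed in the null cultures. DESeq2 called the wild type difference (log2 difference 0.84, adjusted p = 0.0141). From day 0 to day 14 Plagl1 rose 323-fold in the wild type (log2 change 8.33, SE 0.45, adjusted p = 1.87e-07, edgeR) and 46.3-fold in the null cells (log2 change 5.52, SE 0.43, adjusted p = 1.58e-06, edgeR), where 44.9% and 46.3% of all genes passed. These comparisons share libraries with each other.

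Plag1, the oncogene of the family that is silenced in most adult tissues, was low in every library. In the wild type it was measured at 12.2 CPM in ES cells, at 46.0 and 37.2 CPM at day 8 and at 25.2 and 14.3 CPM at day 14. The null libraries held 10.7 CPM at day 0, 15.2 and 17.3 CPM at day 8 and 13.8 and 16.1 CPM at day 14. The wild type day 8 libraries were thus the highest of the 10, and both stood above both null libraries of that day.

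The Plag1 mean at day 8 was 41.6 ± 6.22 CPM in the wild type and 16.2 ± 1.44 CPM in the null cultures (SD, n = 2 each), a 2.56-fold difference that missed the threshold (log2 difference -1.36, SE 0.32, 95% interval -2.04 to -0.67, adjusted p = 0.0621, edgeR). Its libraries did not overlap, as for 20.9% of genes in that direction. At day 14 the groups overlapped (log2 difference -0.39, 95% interval -1.10 to 0.31, adjusted p = 0.702, edgeR), and without the first wild type day 14 library the sign turned, to 0.07. Between days 8 and 14 the change in this genotype difference was 0.96 on the log2 scale and did not pass (95% interval -0.02 to 1.94, adjusted p = 0.819, edgeR). No gene passed that interaction test, so its background is 0%, while DESeq2 called 4 genes, none of them Plag1. In ES cells the wild type to null ratio was 1.15, with a 95% counting interval of 0.742 to 1.75.

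Over time, Plag1 rose from day 0 to day 8 in the wild type (log2 change 1.76, SE 0.43, adjusted p = 0.0057, edgeR). In the null cells the corresponding difference was 0.60 (95% interval -0.27 to 1.48, adjusted p = 0.259, edgeR), an interval that includes 0. Whether the rise differed between the genotypes was not tested. From day 8 to day 14 the wild type difference was -1.08, with both day 14 libraries below both day 8 libraries and no call (95% interval -1.76 to -0.40, adjusted p = 0.0825, edgeR). By day 14 Plag1 did not differ from day 0 by the test in the wild type (log2 difference 0.69, adjusted p = 0.202, edgeR) or in the null cells (0.49, adjusted p = 0.345, edgeR).

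Plagl2, known for supporting Wnt signalling and stem cell renewal, rose with differentiation in both genotypes. In the wild type it was measured at 39.3 CPM in ES cells, 78.3 and 84.0 CPM at day 8 and 74.5 and 88.8 CPM at day 14. In the null cells it was measured at 46.2 CPM at day 0, 101 and 102 CPM at day 8 and 90.7 and 113 CPM at day 14. Both null libraries stood above both wild type libraries at each of days 8 and 14, as for 21.1% and 20.9% of genes in that direction.

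The Plagl2 genotype difference was 0.32 on the log2 scale at day 8 (SE 0.20, 95% interval -0.10 to 0.75, adjusted p = 0.521, edgeR) and 0.32 at day 14 (SE 0.19, 95% interval -0.11 to 0.74, adjusted p = 0.563, edgeR). A gain of more than 0.75 on this scale was thus outside both intervals. Its interaction was -0.01 (95% interval -0.60 to 0.59, adjusted p = 1, edgeR). From day 0 to day 8 Plagl2 rose in the wild type (log2 change 1.05, SE 0.26, adjusted p = 0.00667, edgeR) and in the null cells (log2 change 1.13, SE 0.25, adjusted p = 0.00363, edgeR). From day 8 to day 14 the log2 difference was 0.01 in each genotype, with 95% intervals of -0.42 to 0.44 in the wild type and -0.41 to 0.43 in the null cultures. At day 0 the wild type to null ratio was 0.850, with a 95% counting interval of 0.679 to 1.06.

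Of the 2 paralogs, 2 rose from day 0 to day 8 in the wild type and 1, Plagl2, in the null cells, as did 21.2% and 19% of all genes. Plagl1 rose in both genotypes too, but libraries used to choose it enter these tests, so it is not set against these shares. Plagl2 was also higher at day 14 than at day 0 in each genotype, as were 24.1% of all genes in the wild type and 23.8% in the null cells. So was Plagl1, with the same limit. Between days 8 and 14, 0 of 3 passed with edgeR in either genotype, while at an unadjusted p below 0.05 stood Plagl1 and Plag1 in the wild type and Plagl1 in the null cultures, and DESeq2 called 1 gene, Plagl1, in the wild type. Between genotypes, neither Plag1 nor Plagl2 passed at day 8 or day 14 with edgeR or DESeq2, and the unadjusted p was below 0.05 for 1 of them, Plag1 at day 8.

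To compare the levels of the 3 genes with each other, CPM was divided by the length of the exons of each gene, 7.82 kb for Plagl1, 8.49 kb for Plag1 and 5.74 kb for Plagl2. In wild type ES cells Plagl1 made up 50.6% of the family total per kb, Plagl2 40.8% and Plag1 8.58%. In null ES cells Plagl2 made up 81.0% (8.06 CPM per kb), Plag1 12.6% (1.26 CPM per kb) and Plagl1 6.32% (0.628 CPM per kb). Plagl1 was thus the most abundant family member in the 1 wild type ES cell library and the least abundant in the 1 null one, where it had 29 counts. These shares depend on exon lengths that may differ from the gene models used for the counts.

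During differentiation Plagl1 took 98.7% to 98.8% of the wild type family total at day 8 and 99.4% in both libraries at day 14. Its mean there was 1515 ± 126 and 2737 ± 233 CPM per kb (SD, n = 2 each), against 14.1 ± 0.70 and 14.2 ± 1.77 for Plagl2 and 4.90 ± 0.733 and 2.33 ± 0.912 for Plag1 (SD, n = 2 each). In the null cultures Plagl1 and Plagl2 stood close to each other at day 8, with 48.9% to 51.5% and 44.0% to 45.9% of the total. At day 14 Plagl1 held 53.2% and 63.9% of it. Per kb, Plagl1 at day 8 was 19.8 ± 1.09 and Plagl2 17.7 ± 0.163 in the null cultures (SD, n = 2 each), and the order of the 3 genes, Plagl1, Plagl2, Plag1, was the same in all 8 libraries of differentiated cultures.

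**Figure D2:**
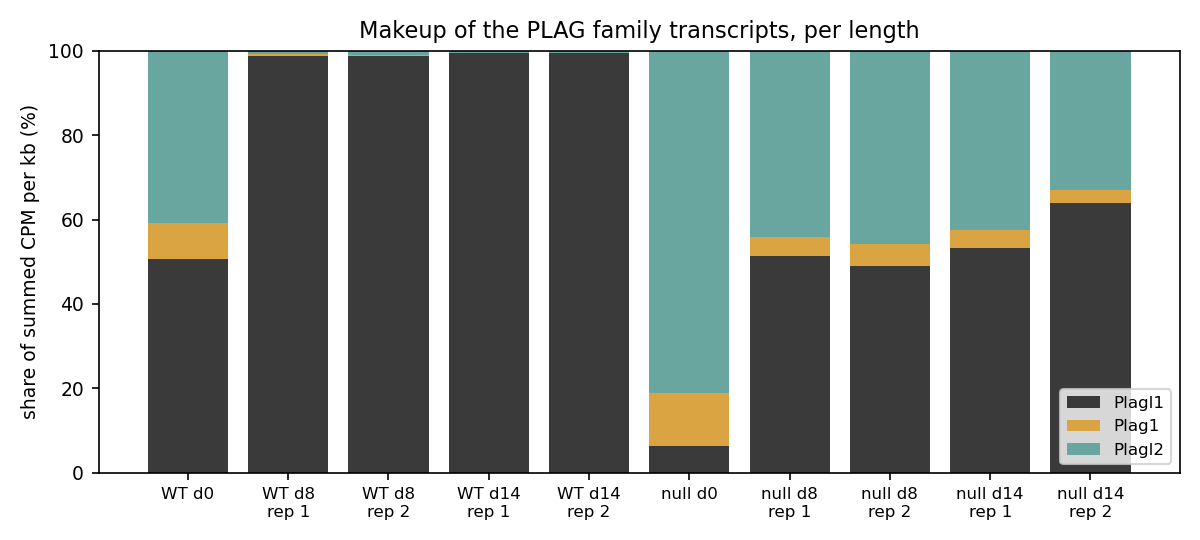
Share of the summed family level per kb (percent) held by Plagl1, Plagl2 and Plag1 in each of the 10 libraries, as stacked bars that start at 0. Plagl1 fills 98.7% or more of the bar in the 4 wild type libraries of differentiated cultures and 48.9% to 63.9% in the 4 null ones.

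The genes next to Plagl1 on chromosome 10 gave no call between the genotypes. Of the 4 listed genes on each side, 6 of 8 had enough reads to test and 0 of the 6 passed at day 8 or at day 14 with edgeR or DESeq2. Over all genes tested, 1.26% passed at day 8 and 0.613% at day 14 with edgeR, so a count of 0 among 6 does not set these genes apart. At an unadjusted p below 0.05 stood 0 of them at day 8 and 2 at day 14, both higher in the null cultures. Their log2 differences lay between -0.86 and 0.38 at day 8 and between 0.26 and 0.69 at day 14.

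The nearest well expressed neighbour was Ltv1, a ribosome assembly factor. It was measured at 89.4 and 101 CPM in the wild type and 128 and 116 CPM in the null cultures at day 8 (log2 difference 0.36), and at 119 and 114 against 137 and 142 CPM at day 14 (0.26). Phactr2, an actin and phosphatase regulator, had the lowest adjusted p of the neighbours at day 14, with 90.0 and 78.6 CPM in the wild type and 125 and 141 CPM in the null cultures (log2 difference 0.66, SE 0.18, adjusted p = 0.133, edgeR). Utrn, which encodes the dystrophin relative utrophin, had differences of -0.01 and 0.31. Zc2hc1b, the listed gene directly after Plagl1, had 4 counts in all libraries together and Gm23044 had 11, so neither could be tested.

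The neighbours of the paralogs likewise gave no call: 0 of 3 tested around Plag1 and 0 of 6 around Plagl2 at either day, with edgeR or DESeq2. The edgeR share over all genes was 1.26% at day 8 and 0.613% at day 14. At an unadjusted p below 0.05 stood 1 of these 9, Chchd7 beside Plag1 at day 8, with 25.9 and 16.6 CPM in the wild type and 8.46 and 15.0 CPM in the null cultures (log2 difference -0.86). Chchd7, which encodes a mitochondrial protein, and Plag1 are transcribed from opposite strands.

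**Figure D3:**
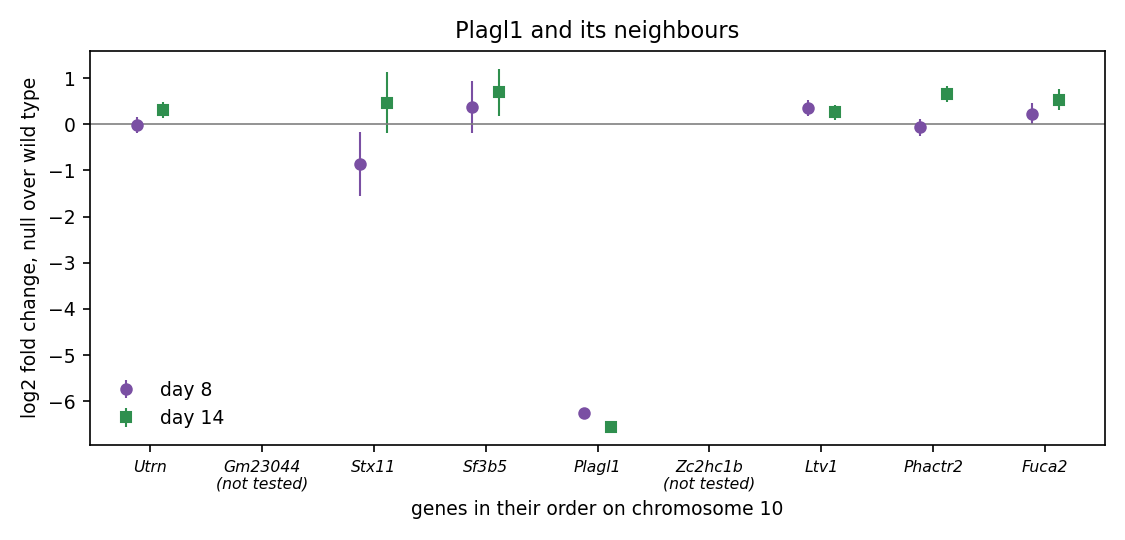
Log2 fold change, null over wild type, at day 8 (circles) and day 14 (squares) for Plagl1 and the 4 genes on each side in their order on chromosome 10, spaced evenly, with bars for 1 SE. Plagl1 lies at -6.26 and -6.56 and is drawn without a bar as a description, while the 6 tested neighbours lie between -0.86 and 0.69.

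PLAGL1 is known as a regulator of a network of imprinted genes that share its pattern of expression in the embryo, and 16 of these genes were listed. At day 8, 2 of 16 were lower in the null cultures and 0 higher (Meg3 and Peg3), where 0.759% of all genes passed as lower and 0.506% as higher. At day 14, 2 were higher (H19 and Grb10) and 1 lower (Meg3), against 0.259% and 0.354% of all genes. DESeq2 called 3 higher and 2 lower at day 8 and 3 higher and 1 lower at day 14, and the unadjusted p was below 0.05 for 3 higher and 4 lower at day 8 and for 5 higher and 3 lower at day 14. The median log2 difference of the list was -0.05 at day 8 and 0.10 at day 14, against 0.01 and -0.01 over all genes tested. Most of the list thus showed no edgeR call in either direction, which with 2 libraries per group does not show that these genes were unchanged. A link to the Plagl1 difference was not tested.

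Meg3, a long noncoding RNA of the maternal copy of the Dlk1 locus, was measured at 2219 and 2042 CPM in the wild type and 215 and 120 CPM in the null cultures at day 8. The day 14 values were 2349 and 1858 CPM against 142 and 150 CPM. The groups stood far apart on both days, and the log2 change of Meg3 was -3.67 at day 8 (SE 0.25, adjusted p = 1.92e-05, edgeR) and -3.85 at day 14 (SE 0.26, adjusted p = 2.12e-05, edgeR). In ES cells it was at 347 CPM in the wild type and 24.5 CPM in the null library. Dlk1, the paternal partner of that locus, was at 453 and 356 CPM in the wild type and 1128 and 246 CPM in the null cultures at day 8, where the groups overlapped (log2 difference 0.77, SE 0.68, adjusted p = 0.708, edgeR).

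Peg3, a paternally expressed zinc finger gene, was lower in the null cultures at day 8, with 12600 and 12150 CPM in the wild type against 7523 and 6492 CPM (log2 change -0.82, SE 0.15, adjusted p = 0.0174, edgeR). Its call was lost without either wild type day 8 library (adjusted p = 0.259 and 0.145, edgeR). At day 14 its log2 difference was -0.35 (adjusted p = 0.322, edgeR). Peg3 was, like Plagl1, among the most abundant transcripts of the wild type cultures, with a smaller genotype difference.

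H19, a maternally expressed noncoding RNA, and Grb10, which encodes an adaptor that restrains growth signalling, moved the other way. H19 was measured at 6900 and 8748 CPM in the wild type and 17620 and 18020 CPM in the null cultures at day 14 (log2 change 1.19, SE 0.15, adjusted p = 0.00502, edgeR). At day 8 it was at 4665 and 4465 against 7098 and 7290 CPM (log2 difference 0.66, adjusted p = 0.0556, edgeR). Grb10 was at 473 and 514 CPM in the wild type and 945 and 1207 CPM in the null cultures at day 14 (log2 change 1.12, SE 0.17, adjusted p = 0.0135, edgeR). Both pairs of groups stood apart, but the H19 call was lost without the first wild type day 14 library (adjusted p = 0.0608, edgeR), and the Grb10 call without either wild type day 14 library (adjusted p = 0.11 and 0.169, edgeR) or the second null one (adjusted p = 0.0536, edgeR).

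Igf2, the fetal growth factor beside H19 and a reported target of these proteins, passed on neither day. It was measured at 10020 and 10400 CPM in the wild type and 8180 and 4693 CPM in the null cultures at day 8 (log2 difference -0.67, SE 0.24, adjusted p = 0.232, edgeR), and at 14090 and 18540 against 11890 and 15810 CPM at day 14 (-0.24, SE 0.24, adjusted p = 0.768, edgeR). The null groups lay below the wild type at day 8, as for 20.9% of genes, and overlapped with it at day 14. Over time the network rose together in both genotypes: from day 0 to day 8, 15 of 16 genes rose in the wild type and 15 of 16 in the null cells, with median log2 changes of 3.63 and 3.35 against 0.13 and 0.04 over all genes. Rises made up 21.2% and 19% of all genes tested.

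**Figure D4:**
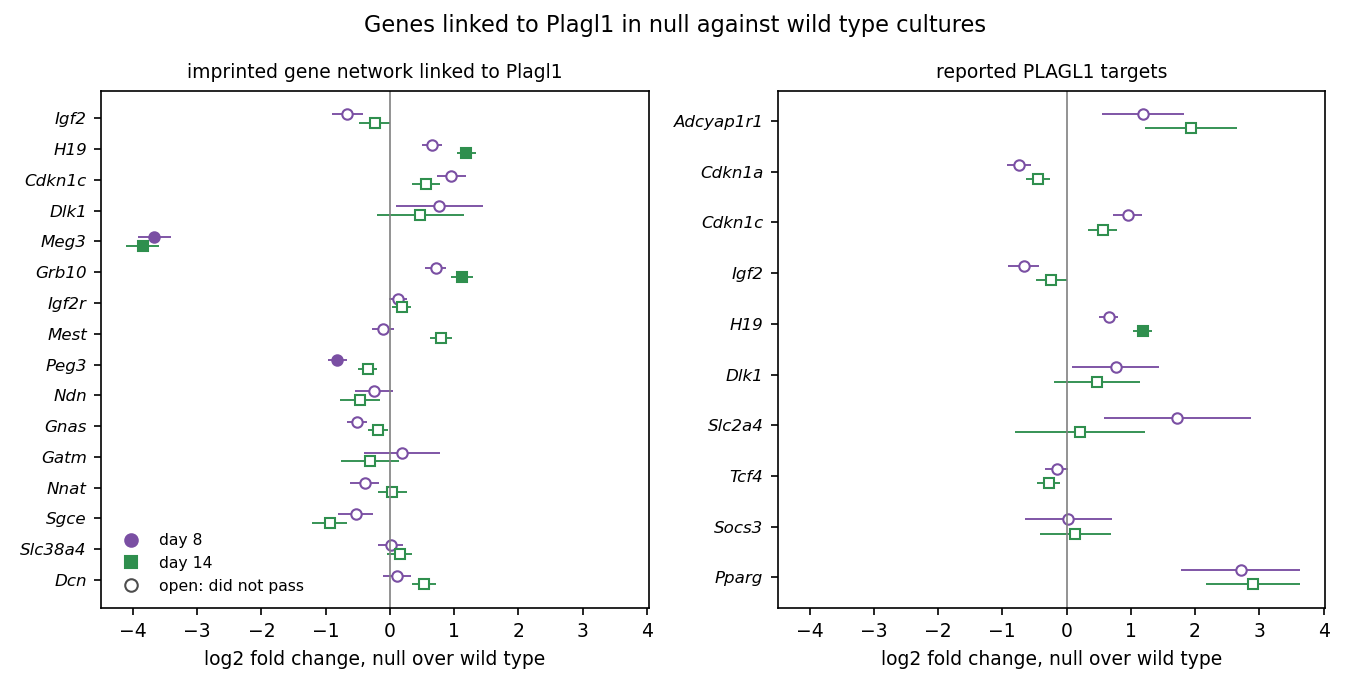
Log2 fold change, null over wild type, at day 8 (circles) and day 14 (squares) for 16 imprinted genes linked to Plagl1 (left) and 10 reported targets of PLAGL1 (right), with bars for 1 SE; filled symbols passed at an adjusted p below 0.05. Meg3 stands alone near -4, H19 and Grb10 are filled at day 14 at 1.19 and 1.12, and most other symbols are open.

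Of 11 genes reported elsewhere as targets of PLAGL1, 10 had enough reads to test. At day 8, 0 of 10 passed with edgeR, while 3 higher and 2 lower had an unadjusted p below 0.05 and DESeq2 called 2 higher and 1 lower. At day 14, 1 of 10 passed, H19. With edgeR, 1.26% of all genes passed at day 8 and 0.613% at day 14. The median log2 difference was 0.71 at day 8 and 0.34 at day 14, against 0.01 and -0.01 over all genes. The list overlaps the imprinted network in Igf2, H19, Dlk1 and Cdkn1c.

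The cell cycle inhibitors on that list lay on opposite sides. Cdkn1c, an imprinted inhibitor of cyclin-dependent kinases, was at 89.4 and 107 CPM in the wild type and 170 and 211 CPM in the null cultures at day 8. Its libraries did not overlap, as for 21.1% of genes in that direction, and it was not called with edgeR (log2 difference 0.95, SE 0.22, adjusted p = 0.063, edgeR). Cdkn1a, the p53-responsive inhibitor p21, was at 144 and 148.5 CPM against 92.4 and 82.6 CPM (log2 difference -0.74, SE 0.19, adjusted p = 0.0808, edgeR). Pparg, the regulator of fat cell differentiation, was low everywhere, with at most 4.26 CPM in the wild type and 28.1 CPM in the null cultures (log2 difference 2.71 at day 8, adjusted p = 0.211, edgeR, and 2.90 at day 14, adjusted p = 0.102, edgeR). The gene for the PACAP receptor, Adcyap1r1, the first target described for the protein, did not exceed 6.67 CPM in any library.

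The wider list of cell cycle inhibitors and apoptosis genes, functions for which PLAGL1 is known, gave 0 of 9 genes passing at each day with edgeR. Over all genes 1.26% passed at day 8 and 0.613% at day 14, so 0 of 9 does not set this list apart. At day 8, 1 higher and 1 lower had an unadjusted p below 0.05 and DESeq2 called 1 higher and 1 lower; at day 14 the unadjusted counts were 2 higher and 1 lower, and DESeq2 called 0. The median log2 difference was 0.04 at day 8 and -0.15 at day 14. Apaf1, an apoptosis gene, was at 83.4 and 75.5 CPM in the wild type and 85.8 and 94.7 CPM in the null cultures at day 8 (log2 difference 0.18).

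Reported targets of PLAG1 and PLAGL2 gave 0 of 8 testable genes passing at day 8 and 0 of 8 at day 14 with edgeR. The shares over all genes were 1.26% and 0.613%, so these counts do not set the list apart. The unadjusted p was below 0.05 for 1 higher and 1 lower on each day, and DESeq2 called 0 at day 8 and 1 lower at day 14. Their median log2 differences were -0.42 and -0.08.

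Extracellular matrix genes, which have been reported among the targets of PLAGL1, mostly gave no call. At day 8, 1 of 20 was higher in the null cultures and 0 lower with edgeR, where 0.506% of all genes were higher and 0.759% lower. The unadjusted p was below 0.05 for 2 higher and 4 lower, and DESeq2 called 2 higher and 0 lower. At day 14, 0 of 20 passed with edgeR, with 3 higher at an unadjusted p below 0.05 and 1 higher by DESeq2. The median log2 difference was -0.14 at day 8 and 0.06 at day 14. The 1 called gene was Col5a2, a fibrillar collagen, at 61.3 and 53.8 CPM in the wild type and 164 and 117 CPM in the null cultures (log2 change 1.29, SE 0.25, adjusted p = 0.029, edgeR), and this call was lost on leaving out any of 5 libraries (adjusted p from 0.057 to 0.252, edgeR). Col1a1 at day 14 was at 4450 and 5155 CPM in the wild type and 5124 and 5917 CPM in the null cultures, which overlapped. Over time the list rose in both genotypes, with 18 of 20 genes higher at day 8 than at day 0 in the wild type and 19 of 20 in the null cells, against 21.2% and 19% of all genes. At day 14, 20 of 20 were higher than at day 0 in each genotype, against 24.1% and 23.8% of all genes.

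Genes that keep imprints through cell division, among them Zfp57 and its partner Trim28, gave 0 of 8 passing at each day with edgeR and with DESeq2, with 1 higher at an unadjusted p below 0.05 at day 8 and 0 at day 14. With edgeR, 1.26% of all genes passed at day 8 and 0.613% at day 14, so 0 of 8 does not set this list apart. The median log2 difference was 0.23 at day 8 and -0.05 at day 14. Zfp57 was at 420 CPM in wild type and 471 CPM in null ES cells, with 1 library per genotype. By day 8 it was at 78.3 and 73.0 CPM in the wild type and 57.6 and 85.2 CPM in the null cultures, and its log2 change from day 0 was -2.47 in the wild type (adjusted p = 9.68e-06, edgeR) and -2.73 in the null cells (adjusted p = 4.78e-06, edgeR).

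Markers of several cell types differed between the genotypes. For comparison, 0.759% of all genes were lower and 0.506% higher in the null cultures at day 8, and 0.354% lower and 0.259% higher at day 14. All 9 testable cardiomyocyte markers of 10 were lower in the null cultures at day 8 and 6 of 9 at day 14; their summed level was 2177 to 2644 CPM in the wild type against 72.5 to 125 CPM in the null cultures at day 8, where Myl7, Myl3 and Nppa were at 0, and 933 to 1056 against 188 to 258 CPM at day 14. Of the 6 macrophage markers, 3 were lower at day 8 and 0 at day 14 with edgeR, where 4 had an unadjusted p below 0.05 and DESeq2 called 2. Their sums were 52.1 to 82.4 against 9.50 to 12.1 CPM at day 8 and 306 to 403 against 123 to 146 CPM at day 14. Of the 8 testable mesenchyme markers of 10, 0 passed on either day with edgeR or DESeq2, with 1 higher at an unadjusted p below 0.05 on each day, and the sums were 371 to 416 against 290 to 379 CPM at day 8 and 759 to 834 against 518 to 864 CPM at day 14. The part of these markers in the Plagl1 difference was not tested. In ES cells the cardiomyocyte sum was 362.5 CPM in the wild type, with 4 of 10 markers at 0 (Actc1, Myl7, Myl3 and Nppa), and 153 CPM in the null library, with 3 at 0 (Actc1, Myl4 and Myl3). Tnnt2, Myh7 and Ryr2 were there at 0.66, 0.99 and 12.2 CPM in the wild type and 1.02, 0.51 and 7.95 CPM in the null library. Most of each ES cell sum thus came from the other markers of the list.

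Each of the other marker groups had fewer genes passing with edgeR than the cardiomyocyte markers on both days. Of 7 testable endothelial markers of 8, 0 passed at day 8 with edgeR (2 lower at an unadjusted p below 0.05, 1 by DESeq2), and 2, Tek and Emcn, were lower at day 14. On that later day 1 was higher and 4 lower at an unadjusted p below 0.05, and DESeq2 called 1 higher and 2 lower. Among 6 visceral endoderm markers, Afp and Apoa1 were lower at day 8 and Afp at day 14. Their sums were 155 to 191 CPM in the wild type against 26.6 to 146 CPM in the null cultures at day 8. At day 14 the sums overlapped, at 227 to 272 against 71.4 to 326 CPM. Of 8 pluripotent cell markers, Esrrb and Dppa5a were higher at day 8 with edgeR. There 4 were higher and 1 lower at an unadjusted p below 0.05, and DESeq2 called 1 higher. Summed levels at day 8 were 49.5 to 60.0 CPM in the wild type and 63.8 to 127 CPM in the null cultures. None (0) passed at day 14 with edgeR and DESeq2, with 1 lower at an unadjusted p below 0.05. Trophoblast markers gave Krt7 higher at day 8 among 7 testable of 8, and their sums were 187 to 215 CPM in the wild type against 346 to 371 CPM in the null cultures. At day 14, 0 passed with edgeR, 3 were higher at an unadjusted p below 0.05 and DESeq2 called 2 higher, with sums of 122 to 219 against 331 to 505 CPM. Of 4 testable neural markers of 7, 0 passed on either day with edgeR, with 0 at an unadjusted p below 0.05 at day 8 and 2 lower at day 14, where DESeq2 called 1. In ES cells, where both genotypes expressed all 8 pluripotent cell markers, the sums were 6439 and 11180 CPM.

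The genes whose profile was most like that of Plagl1 were ranked over the 10 libraries among the 6628 genes whose group means spanned at least 2 log2 units. By Pearson's r of log2 CPM the first 10 were Dand5 (0.97), Ehbp1l1 (0.96), Meg3 (0.96), AF357425 (0.95), Apc-ps1 (0.95), AI429214 (0.94), Adarb1 (0.94), Abcd2 (0.94), Actc1 (0.93) and Itgb2 (0.93). These values are descriptions over libraries that share genotype, day and depth, and several of the genes had few counts: Dand5 never exceeded 4.87 CPM. Meg3 and AF357425 both lie on chromosome 12.

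Ranked instead by the size of the remaining distance between centred profiles, which rewards a rise and a genotype difference as large as those of Plagl1, the first 10 were Actc1, Myh7, Meg3, Tnnt2, Slc8a1, Epha3, Afp, Myl3, C3ar1 and Actg2. Actc1, the cardiac actin, had the smallest distance, 1.42 log2 units, and Actg2 closed the 10 at 2.28. Meg3 and Actc1 were the 2 genes on both lists. Actc1 was at 370 and 375 CPM in the wild type and 7.496 and 0.863 CPM in the null cultures at day 8, and at 184 and 119 against 9.29 and 1.98 CPM at day 14, so it had its highest wild type level at day 8 where Plagl1 had it at day 14. With Spearman's rho, 1 of the 10 genes chosen by Pearson's r was chosen again, and over the 8 libraries of differentiated cultures 2 were.

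**Figure D5:**
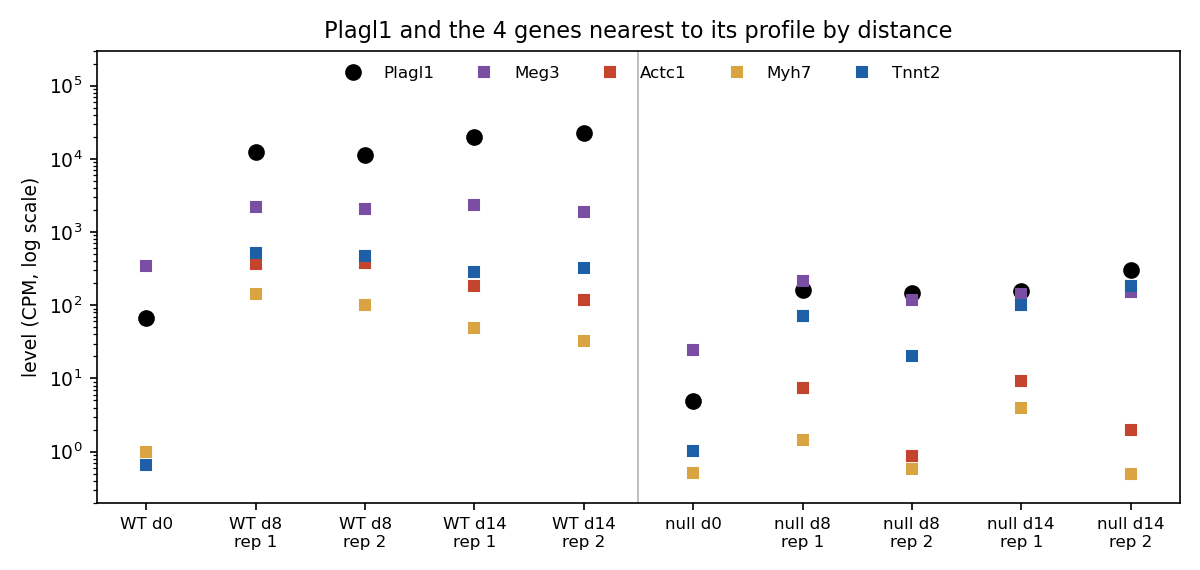
Level in CPM (log scale) of Plagl1 (circles) and of the 4 genes nearest to its profile by distance (squares) in each of the 10 libraries, wild type on the left and null on the right of the line. Plagl1 and Meg3 are the highest in the wild type cultures, and Actc1 is not drawn at day 0, where both libraries held 0 counts.

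The paralogs were on neither list for Plagl1, and their Pearson's r with it was 0.73 for Plag1 and 0.37 for Plagl2 over the 10 libraries. Over the 8 libraries of differentiated cultures the values were 0.61 and -0.80, with Plagl2 higher in every null than in every wild type library of those days. The genes most like Plag1 were Ryr2, the calcium release channel of heart muscle (0.91), Phka2 (0.91), Stac (0.91), Sphkap (0.91) and Nebl, a cardiac Z-disc gene (0.90). Ryr2 was at 96.1 and 80.6 CPM in the wild type and 19.6 and 13.5 CPM in the null cultures at day 8, and like Plag1 it was lower at day 14 than at day 8 in the wild type libraries, at 39.8 and 33.4 CPM.

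Among the genes nearest to Plag1 by distance were Fam171a1, Slc39a3, Hacd1 and Rps6ka2, at 0.32 to 0.34 log2 units. For Plagl2 the highest r values belonged to Hhat (0.99), BC034090 (0.98), Hoxb8 (0.98), Top2b (0.98) and the imprinted Grb10 (0.98), and the smallest distances to Cdc42bpa, Tcf25, Sec63, Brms1 and Uaca, at 0.12 to 0.14 log2 units. Cdc42bpa was at 98.3 CPM in wild type ES cells, 251 and 235 CPM at day 8 and 230 and 248 CPM at day 14, and at 154, 277, 278, 250.3 and 334 CPM in the null libraries. Like Plagl2 it was higher at days 8 and 14 than at day 0 in both genotypes. None of the 5 genes for either paralog was on both of its lists (0 shared). With Spearman's rho 1 of 5 was chosen again for each paralog, and over the 8 libraries 0 of 5.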

How the data were processed

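RNA was measured in 10 libraries. Per the labels' protocols, NuGEN kits (Ovation, Encore) were used to prepare them. The authors deposited whole-number read counts per Ensembl gene, not normalized. Per the submitters' processing notes, the build was mm9 and the tools included TopHat, HTSeq and DESeq. Not given in the sources used here are their roles, versions, annotation and strand setting, so sense and antisense reads cannot be told apart. Symbols (30946 of 36191 genes), gene order and exon lengths came from a GRCm38 annotation, and 7954 genes had 0 counts throughout. All 10 value columns matched a sample.

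Counts were fitted with edgeR 4.0.16 (R 4.3.3; TMM factors, filterByExpr with a minimum count of 10, robust quasi-likelihood F test) over 6 genotype-by-day groups, with 4 residual degrees of freedom and a common biological coefficient of variation of 0.214. P-values were adjusted by Benjamini-Hochberg over 15819 genes, with a threshold of 0.05. Each lone day 0 library was assumed to vary like the other groups. The members, gene lists and markers were chosen with earlier results of these data known. Named genes were the 3 members, Rybp, 4 neighbours on each side, list members that passed or whose values were needed, and the 10 (for a paralog 5) most alike genes by Pearson's r and by distance of log2 CPM with a prior count of 2. Promoter letters came from RefSeq; the table held 1 of the 3 members, and the motifs were chosen after the sequence was seen. The code was tested on simulated counts. Alternatives were DESeq2 1.42.0, RLE factors, TMM factors without chromosomes 1, 6, 8, 14 and Y (which differed as a whole between the genotypes in earlier results of these data; the members lie elsewhere), no count filter, each replicate left out, days 8 and 14 alone and a replicate block. A gene that the naming rule selects is in some cases not reported here.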

Additional observations from a re-analysis of the deposited data

How the results depend on the processing

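The genotype difference of Plagl1 kept its sign and size throughout, from -6.34 to -6.17 at day 8 and from -7.11 to -6.16 at day 14 on leaving out 1 replicate. Of the values of members and comparisons recomputed under an alternative, 8 differences of a member gained a call, 14 turned sign and 31 counts moved by over 1.5 times; the other 411 kept their direction and side of the threshold, or, for counts and for values with no test, moved by less than that or than the spread between replicates. Calls gained without the count filter were those of Plagl1 between days 8 and 14 (0.86 in the wild type, 0.56 in the null cultures), of Plag1 at day 8 (-1.34) and of Plag1 between days 8 and 14 in the wild type (-1.07); DESeq2 added Plagl1 in the wild type (0.84). The other 3 came with edgeR on leaving out 1 null day 14 library: Plagl1 in the wild type without either (0.85 each), and in the null cultures without the first (0.95). On leaving out 1 replicate these ranged from 0.76 to 0.94 for Plagl1 in the wild type and from 0.0069 to 0.95 in the null cultures, and the Plag1 difference at day 14 from -0.75 to 0.0653. The differences of Plagl2 near 0 turned sign: its interaction with DESeq2 (0.0113) and RLE factors (0.0066; leaving out 1 replicate, -0.17 to 0.14), its wild type change between days 8 and 14 with DESeq2 (-0.0015; -0.12 to 0.13) and its null change without the 5 chromosomes (-0.0037; -0.16 to 0.16).

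The count of genes passing was 200 at day 8, 708 without the filter and 28 to 324 on leaving out 1 replicate; it was 97 at day 14, 200 with DESeq2, 637 without the filter and 14 to 301 on leaving out 1. The interaction gave 0, 4 with DESeq2, 65 without the filter and 0 to 2. Between days 8 and 14 there were 639 in the wild type (1244 without the filter, 108 to 935 on leaving out 1) and 1217 in the null cultures (1892, and 613 to 1243). Without the 5 chromosomes in the scaling, the day 8 calls split into 118 higher and 101 lower, against 80 and 120. Genes shared with the lists by Pearson's r numbered 1 of 10 with Spearman's rho and 2 over the 8 later libraries for Plagl1, and 1 and 0 of 5 for Plag1 and for Plagl2. The cause of these shifts was not tested.

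Replicate numbers share no stated origin, and deviations of same-numbered libraries correlated between -0.211 and 0.16. With the replicate number as a block, 138 genes passed at day 8, 74 at day 14, 0 in the interaction, and 571 and 985 between the days; no call of a member changed, the Col5a2 call at day 8 was lost (adjusted p = 0.0638, edgeR), and the null change of Plagl2 turned to -0.0076. Depth of 3028153 counts or more limits genes near 1 CPM to a few counts.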
